A study of Mus musculus with 7 samples.

Results

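The 7 B-cell identity genes Cd79a, Cd79b, Ms4a1, Pax5, Ebf1, Blk and Cd22 were examined in the called Runx3-bound and H3K4me1-marked regions of resting CD8-positive T cells (CD8-TC), a lymphocyte lineage other than their own. A region was assigned to a gene when its midpoint lay in the gene body or within 20 kb of it, and this stretch is called the locus. The 7 genes, out of 22350 protein-coding genes in the GENCODE annotation of the NCBIM37 genome (mm9), held 3 of the 4934 Runx3-bound regions and 122 of the 76705 H3K4me1-marked regions. Chromatin immunoprecipitation sequencing (ChIP-seq) had been carried out on freshly isolated splenic CD8+ T cells of wild-type ICR mice, an outbred strain, with cells of 18 mice used and neither treatment nor deletion in any group. Runx3 had been precipitated with a rabbit polyclonal antiserum (3 libraries from 2 biological repeats) and H3K4me1 with a monoclonal antibody (2 libraries, 1 from each of 2 repeats). Control precipitations used rabbit non-immune serum, termed NIS (2 libraries). Each called list was made from joined repeats, so the lists used here give no value per library for any locus, no value below has a replicate error, and no difference was tested over replicates.

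The deposited lists give only positions. The depth behind a region is unknown here, and a locus without a listed region cannot be told apart from a locus whose signal stayed under the caller's threshold. The cells had been selected on anti-CD8 magnetic beads to a purity above 95% per the labels, and a region carried by few cells cannot be told apart from a region carried by many. The lists hold no level of any B-cell marker, so the part of remaining B cells or other CD8+ cells in the marked regions was not tested. Set against the label, all 12 genes of a CD8 T cell list (Cd8a, Cd8b1, Cd3d, Cd3e, Cd3g, Cd247, Lck, Cd2, Cd5, Cd6, Zap70 and Lat) held Runx3-bound and H3K4me1-marked regions in their loci. So did all 8 genes of a B-cell transcription factor list, some of which are also used in T cells. Other B-cell lists held Runx3 less often: 2 of the 7 members, 4 of 10 receptor-pathway, 3 of 8 surface and 1 of 3 pre-B cell genes, against 19.8% of all protein-coding loci. A call at a locus therefore does not by itself identify the cell type. Intervals are 95% intervals over regions only, and neighbouring regions are not independent. They are exact Poisson intervals for densities and exact Clopper-Pearson intervals for shares of regions or genes. The interval of the covered share of the loci reflects the number of regions and not the spread of their widths. Intervals of median widths are of neither named kind.

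B lymphocytes recognise antigen through membrane immunoglobulin, which signals into the cell through the paired chains CD79A and CD79B. The transcription factors EBF1 and PAX5 set up and hold the B-cell programme, and PAX5 also represses genes of other lineages. Runx3 is a RUNX-family transcription factor that silences Cd4 and is needed for the cytotoxic programme of CD8-TC, and monomethylation of histone H3 at lysine 4 (H3K4me1) marks enhancers, whether active or poised.

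Every one of the 7 loci carried H3K4me1, and Runx3 was called at 2 of them, Cd79a and Pax5, where 73.6% and 19.8% of all protein-coding loci held such regions. The sequences of the 3 Runx3-bound regions are shown because they are the complete Runx3 occupancy found at these genes. Each is given on the plus strand of mm9 as up to 300 bases around the midpoint. Capitals mark a RUNX motif, searched on both strands with the letters TGTGGT, with TGTGGC, with TGCGGT and with TGCGGC. A run printed as GCCACA is therefore the motif variant TGTGGC on the opposite strand.
Cd79a, upstream region, chr7:25669171-25669389: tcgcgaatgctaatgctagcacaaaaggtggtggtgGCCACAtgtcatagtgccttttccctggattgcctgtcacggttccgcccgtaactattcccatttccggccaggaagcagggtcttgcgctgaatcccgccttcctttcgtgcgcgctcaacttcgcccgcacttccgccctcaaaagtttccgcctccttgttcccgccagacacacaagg
Cd79a, downstream region, chr7:25692167-25692466: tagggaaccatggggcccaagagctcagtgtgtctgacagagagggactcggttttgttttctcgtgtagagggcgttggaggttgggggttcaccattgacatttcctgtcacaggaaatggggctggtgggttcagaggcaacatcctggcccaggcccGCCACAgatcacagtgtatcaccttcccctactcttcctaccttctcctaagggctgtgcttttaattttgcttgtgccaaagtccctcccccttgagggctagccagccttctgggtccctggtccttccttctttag
Pax5, intronic region, chr4:44687973-44688272: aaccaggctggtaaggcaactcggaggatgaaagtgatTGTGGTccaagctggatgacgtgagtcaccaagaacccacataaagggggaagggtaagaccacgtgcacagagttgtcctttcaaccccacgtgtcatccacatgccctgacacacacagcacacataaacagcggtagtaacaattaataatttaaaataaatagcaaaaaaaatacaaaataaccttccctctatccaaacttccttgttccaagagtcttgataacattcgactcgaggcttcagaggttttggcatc

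The upstream Runx3-bound region of the Cd79a locus (chr7:25668725-25669915, 1191 bp) was a promoter region of another gene. Its midpoint lay 70 bp from the start site of Rps19, which encodes a ribosomal protein of the small subunit, at -13080 bp from the 5′ end of Cd79a. It did not overlap H3K4me1, although the nearest marked region (chr7:25669972-25673373, 3402 bp) began 56 bp away. It held 3 RUNX motifs, 1 TGTGGC and 2 TGCGGC, the nearest 111 bp from the midpoint, and 60.6% of its bases were G or C. The sequence shown for it stops before the Rps19 exon.

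The second region of that locus (chr7:25691832-25692800, 969 bp) lay in intron 1 of Arhgef1, which encodes a guanine nucleotide exchange factor, 350 bp from an Arhgef1 start site. It was 9916 bp from the 5′ end of Cd79a, beyond the 3′ end of the gene. It lay wholly inside an H3K4me1-marked region of 4270 bp (chr7:25689750-25694019). Both of its RUNX motifs were TGTGGC, and 1 of them lay 14 bp from the midpoint. So both Runx3-bound regions assigned to Cd79a by distance had the start site of a neighbour nearest to them, and within the Cd79a gene body none was called.

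The Runx3-bound region of Pax5 (chr4:44687701-44688544, 844 bp) was the only 1 of the 3 that lay in a member's own gene body. It sat in intron 5, 36196 bp into the gene and 8565 bp from the nearest annotated Pax5 start site. It lay wholly inside an H3K4me1-marked region of 15390 bp (chr4:44679360-44694749), the widest at any of the 7 genes, and 79 regions of the whole list (0.103%) were as wide or wider. Its 3 RUNX motifs were 2 TGTGGT and 1 TGCGGT, none of them in the central 200 bp, and its G and C content was 43.6%. A Runx3-bound region was found in the gene bodies of 8.51% of all protein-coding genes, against 1 of the 7 members.

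Over all protein-coding genes, 19.8% had a Runx3-bound region and 73.6% an H3K4me1-marked region in the locus. The members' counts were 2 of 7 and 7 of 7. Long loci collect more regions by their length, and among loci of at least 100 kb the shares were 30.3% and 82.1%. Pax5 and Ebf1 are the members with loci of this length, of which Pax5 held Runx3 and Ebf1 did not. With 7 genes, a Runx3 count of 2 is close to the background share, and nothing was read from it. No member had Runx3 within 1 kb of a start site, which 5.11% of all genes had. Of loci with at least 8 H3K4me1-marked regions, a minimum chosen after the members' values were seen, 55.4% held no Runx3-bound region, against 5 of the 7 members.

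**Figure D1:**
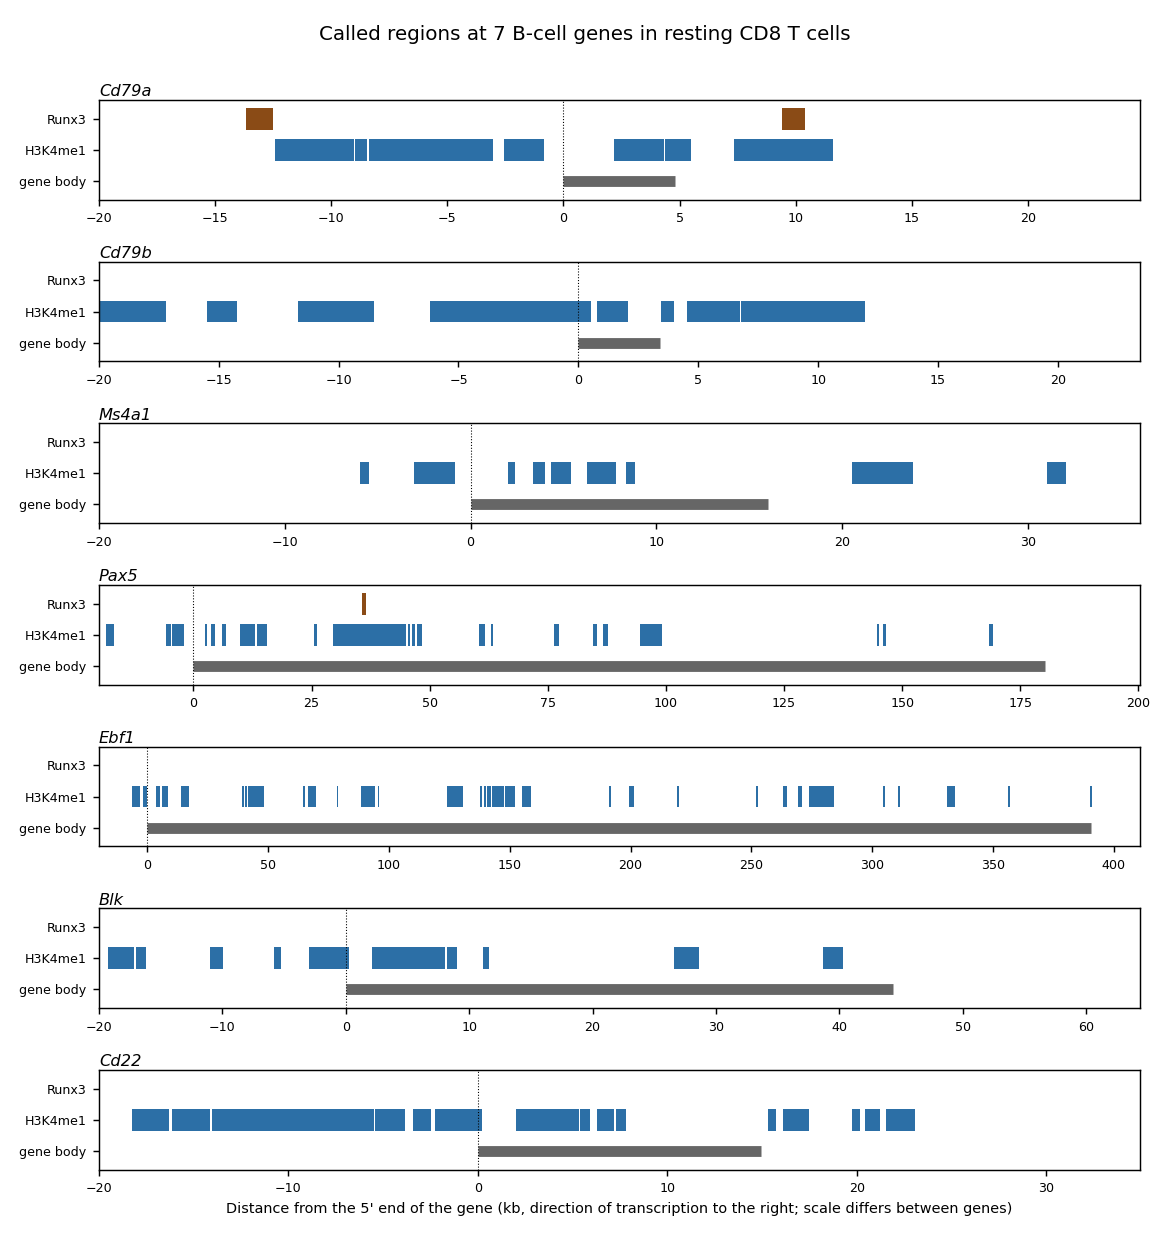
Runx3-bound (brown) and H3K4me1-marked (blue) regions at the 7 B-cell genes, each drawn to its own scale by distance in kb from the 5′ end of the gene (dotted line), with the direction of transcription to the right and the gene body in grey. Runx3 appears at Cd79a, outside the gene body, and inside Pax5, and H3K4me1 at all 7 genes, against 19.8% and 73.6% of all protein-coding loci.

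The receptor chains carried dense H3K4me1. Cd79a (chr7:25682400-25687216, plus strand, 5 exons) had 8 marked regions in a locus of 44.8 kb, which covered 18.5 kb or 41.2% of it. This share was at or above that of 97.7% of protein-coding genes. Cd79b (chr11:106172655-106176076, minus strand, 6 exons) also had 8 regions, which covered 23.2 kb or 53.4% of its 43.4 kb, the highest share of the 7 and at or above that of 99.4% of genes. Both loci thus lay far above the median protein-coding gene, for which 5.75% of the locus was covered (quartiles 0 and 14.3%, 90th percentile 25.1%).

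The 2 chains differed at their start sites. The start site of Cd79b lay inside its widest region (chr11:106175565-106182258, 6694 bp), and 1.29% of all H3K4me1-marked regions were as wide or wider. A further region of 1296 bp (chr11:106173985-106175280) followed it in the gene. The start site of Cd79a lay in unmarked sequence, and the closest region (chr7:25680912-25681569, 658 bp) had its midpoint 1160 bp upstream. The mark returned in the body of Cd79a: of 3 equal parts of the gene, the part next to the start site was 0% covered, the middle part 64.2% and the part at the 3′ end 97.1%. In Cd79b the part next to the start site was 75.1% covered, the middle part 83.3% and the part at the 3′ end 0%.

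The neighbours of Cd79a lie close, and most marked regions at this locus lay nearer to a start site of theirs. Nearness does not show which gene a region serves. A region nearest to Arhgef1 (chr7:25684580-25686715) had its midpoint in intron 3 of Cd79a itself. The closest annotated start sites of Rps19 and Arhgef1 were 8641 and 5531 bp away. The start sites of these genes that had Runx3 within 1 kb were others, further from Cd79a. Of the 8 marked regions of Cd79a, 2 had its own start site nearest, and the widest (chr7:25674040-25679348, 5309 bp) was nearest to Rps19. Restricted to the 7.09 kb that lay nearest to its own start site, Cd79a was still covered to 50.1% and held no Runx3-bound region. For Cd79b, 6 of the 8 regions had its own start site nearest, and the share within those 23.9 kb was 63.3%. The Cd79b neighbours were Gh, which encodes growth hormone, and Scn4a, a sodium channel of skeletal muscle. The Runx3-bound region nearest to Cd79b (chr11:106213006-106213667) lay 37.3 kb from its start site, outside the locus and closest to Scn4a.

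Among the surface and signalling genes, Cd22 stood with the receptor chains. Cd22 encodes a sialic acid-binding receptor that dampens signalling of the B-cell receptor. Its locus (gene chr7:31650421-31665361, minus strand, 16 exons) held 16 marked regions, 2.91 in 10 kb, the highest density of the 7. They covered 27.4 kb or 49.9% of 54.9 kb, at or above the share of 99.1% of genes. The start site lay inside a region of 2513 bp (chr7:31665126-31667638), with another of 3361 bp (chr7:31660007-31663367) in the gene. The widest (chr7:31672861-31679372, 6512 bp) was centred 10755 bp upstream.

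Most of the Cd22 mark lay upstream and in the part of the gene next to the start site. The 3 equal parts of the gene body were covered to 64.7%, 45.8% and 0% from 5′ to 3′. A region assigned to exon 8 of Cd22 was the only 1 of the 122 with its midpoint in a coding exon. Within the 27.3 kb nearest to its own start site the share was 79.7%, the highest of the 7 on this measure. The neighbours Ffar3, Ffar1 and Mag, which encode fatty acid receptors and a myelin glycoprotein, had no Runx3 within 1 kb of a start site. The nearest Runx3-bound region (chr7:31787351-31788119) was 122 kb from the Cd22 start site, closest to Lsr.

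Ms4a1 and Blk were marked less. Ms4a1 encodes CD20, a membrane protein used as a marker of mature B cells. Its locus (gene chr19:11324654-11340669, minus strand, 7 exons) held 9 regions that covered 11.1 kb or 19.9% of 56 kb, at or above the share of 84.3% of genes. Its start site was unmarked, and the closest region (chr19:11341531-11343738, 2208 bp) was centred 1965 bp upstream. The widest (chr19:11316840-11320135, 3296 bp) lay downstream, nearest to Ms4a12, another gene of the same family. The part of the gene body at the 3′ end was 0% covered. The nearest Runx3-bound region (chr19:11429941-11430887) lay 89.7 kb away at a further family member, Ms4a7.

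Blk encodes a kinase of the Src family that acts downstream of the B-cell receptor. Its locus (gene chr14:63991674-64036024, minus strand, 13 exons) held 11 regions over 18.9 kb, or 22.4% of 84.4 kb, the median of the 7 genes. The start site lay inside a region of 3264 bp (chr14:64035743-64039006), and the widest (chr14:64027970-64032893, 4924 bp) followed in intron 1. From 5′ to 3′ the 3 equal parts of the gene body were covered to 50.4%, 14.1% and 10.9%. The nearest Runx3-bound region (chr14:63559288-63560283) was 476 kb from the start site.

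The transcription factor genes were the longest and had the most regions but the lowest shares. Pax5 (chr4:44544017-44724318, minus strand, 10 exons) held 26 marked regions over 42.2 kb, or 19.2% of 220 kb. Ebf1 (chr11:44430819-44821593, plus strand, 16 exons) held 44 regions over 77.4 kb, or 18% of 431 kb, the lowest share of the 7. These shares were still at or above those of 83.2% and 81.4% of protein-coding genes. All of their marked regions had a start site of Pax5 or Ebf1 itself nearest, and no other protein-coding gene shared either locus.

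Both genes carried the mark mostly in introns and unevenly. In Pax5, 22 of the 26 regions were intronic, and the 3 equal parts of the gene body were covered to 43%, 15.5% and 2.99% from 5′ to 3′. An unmarked stretch of 45.4 kb (chr4:44579737-44625110) lay towards its 3′ end, the longest in any of the 7 loci. The annotated 5′ end of Pax5 was unmarked, and the region of 841 bp within 1 kb of a start site (chr4:44717384-44718224) was near an internal start site without a protein-coding transcript. In Ebf1, 40 of the 44 regions were intronic, and the parts were covered to 24.8%, 15.3% and 15.1%.

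The start site of Ebf1 lay inside a region of 1757 bp (chr11:44429079-44430835), with regions of 899 bp (chr11:44434578-44435476) and 677 bp (chr11:44435505-44436181) near further annotated start sites. Its widest region (chr11:44704792-44712065, 7274 bp) lay in intron 8, and 1.02% of the list was as wide or wider. The nearest Runx3-bound region (chr11:45666142-45667037) was at Clint1, beyond the 3′ end of Ebf1. It lay 941 kb from the closest annotated Ebf1 start site, which is internal to the gene, and further from the 5′ end. The distance to the closest start site was the largest among the 7 genes.

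Set in order by the covered share of the locus, the genes ran from Cd79b (53.4%) through Cd22, Cd79a, Blk, Ms4a1 and Pax5 to Ebf1 (18%). The first 3 and the last 4 were separated by the gap between 41.2% and 22.4%. Without replicate values the neighbours in this order could not be tested against each other. All 7 genes had H3K4me1 within 1 kb of an annotated start site, against 58.4% of all protein-coding genes. With start sites of protein-coding transcripts alone the count was 6, Pax5 being the exception, and in 4 genes (Cd79b, Ebf1, Blk and Cd22) the start site lay inside a region.

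Of the 122 regions most were intronic, but this did not hold at every gene. Relative to 1 representative transcript of each gene, 78 had their midpoint in an intron, 1 in a coding exon, 30 upstream and 13 downstream, and 6 lay inside another gene. Most of the intronic regions belonged to the long genes Pax5 (22 of its 26) and Ebf1 (40 of its 44). The intronic counts were 5 of 9 at Ms4a1 and 6 of 11 at Blk. They were 3 of 16 at Cd22, 1 of 8 at Cd79a and 1 of 8 at Cd79b. For 103 of the 122 regions the nearest start site belonged to the member. Their median width was 1084 bp (interval 947 to 1398 bp) against 979 bp for the whole list. Regions of at least 3000 bp made up 18% of them (22 regions, interval 11.7 to 26%), against 8.53% of the whole list (interval 8.33 to 8.73%). At the CD8 T cell genes the median width was 1283 bp (interval 1134 to 1451 bp) and the share of such regions 12.8% (7.86 to 19.2%), and both intervals overlap those of the B-cell genes. The median per gene ran from 874 bp at Pax5 to 2692 bp at Cd79b, so that Pax5 held the widest region and also the lowest median.

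**Figure D2:**
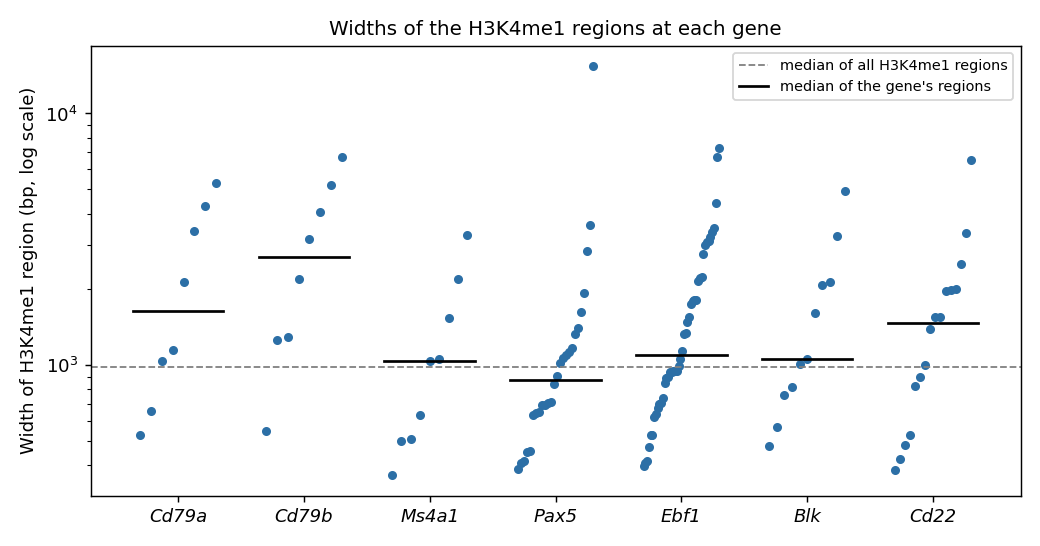
Width in bp (log scale) of each H3K4me1-marked region at the 7 genes, 1 point for a region, with the median of the gene as a black line and the median of all 76705 regions (979 bp) as a dashed line. The point of 15390 bp at Pax5 lies above all others, and the medians of Cd79b, Cd79a and Cd22 lie highest.

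The B-cell loci were then set beside other gene lists to show where they differ. Summed over the 7 loci, H3K4me1 covered 219 kb of 935 kb or 23.4% (interval 19.4 to 27.9%), and the median over the genes was 22.4%. In the CD8 T cell list the median was 39.9%, from 19.2% at Zap70 to 68.1% at Cd2, and some of these loci overlap each other (the Cd3 genes, and Cd8a with Cd8b1). Marked regions numbered 131 in 1 Mb at the B-cell genes (interval 108 to 156) and 222 at the T-cell genes (188 to 261), against 29.1 over the chromosomes. The chromosome density includes sequence far from genes and is not a matched background for gene loci. The ranges of single genes overlapped, with Cd79b, Cd22 and Cd79a above the T-cell median.

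The lists lay further apart in Runx3. The T-cell loci held 22 Runx3-bound regions, or 32.8 in 1 Mb (interval 20.6 to 49.7), and the B-cell loci 3.21 (0.662 to 9.38), against 1.87 over the chromosomes, again not a matched background. Runx3 was found in 12 of 12 T-cell loci and 2 of 7 B-cell loci, the latter near the 19.8% of all protein-coding loci. Some of these 12 loci share regions because they overlap. In gene bodies alone the counts were 5 of 12 and 1 of 7, against 8.51% of all protein-coding genes. With regions nearest to the gene's own start site they were 10 of 12 and 1 of 7, a setting without a share over all genes here. Lck and Lat had Runx3 within 1 kb of a start site.

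The same held for the overlap of both marks. Of the H3K4me1-marked regions, 22 of 149 (14.8%, interval 9.49 to 21.5%) at the T-cell genes and 2 of 122 (1.64%, 0.199 to 5.8%) at the B-cell genes overlapped a Runx3-bound region by at least 1 bp. In the whole list the share was 5.49% (interval 5.33 to 5.66%). The T-cell genes are known genes of the studied cells, so their count is not an independent measure of the background.

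**Figure D3:**
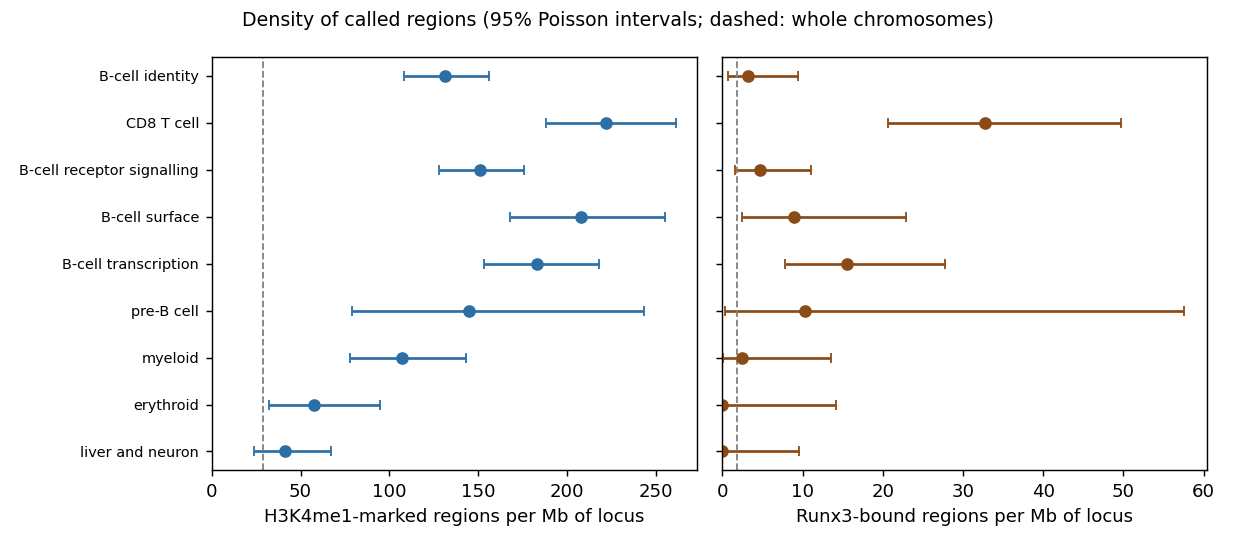
Number of H3K4me1-marked (left) and Runx3-bound (right) regions in 1 Mb of locus for the B-cell genes and 8 other gene lists, with 95% Poisson intervals and the density over whole chromosomes as a dashed line. For Runx3 the intervals of the B-cell (0.662 to 9.38) and CD8 T cell (20.6 to 49.7) lists do not overlap.

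Further genes of the B-cell programme were read in the same way. The shares over all protein-coding loci were again 73.6% for H3K4me1 and 19.8% for Runx3. Of 10 genes of the B-cell receptor pathway, all held H3K4me1, with a median of 29.5% of the locus and a range from 13.5% at Btk, a kinase, to 44.8% at Syk, also used in other blood cells. Runx3 was present at 4 of them, among which were the adaptor gene Blnk and the genes of the inhibitory receptors Cd72 and Siglecg (1 region each). Of 8 B-cell surface genes, all held H3K4me1, from 19% at Cd40 to 62.5% at Cxcr5, a chemokine receptor, with a median of 36%. There Runx3 was present at 3: Fcer2a (2 regions), Cd37 and Tnfrsf13c (1 each). Cxcr5 and Cd37 are also used in other blood cells including T cells.

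Runx3 was called at every gene of the B-cell transcription factor list. All 8 genes, Spib, Spi1, Bcl11a, Pou2af1, Pou2f2, Tcf3, Ikzf3 and Foxo1, held Runx3, 11 regions or 15.5 in 1 Mb (interval 7.75 to 27.8), and 3 of them (Pou2af1, Pou2f2 and Tcf3) within 1 kb of a start site. This interval overlaps those of the members and of the receptor and surface lists, and the difference was not tested. Their median H3K4me1 share was 35.5%, from 23.9% at Spi1 to 66.5% at Foxo1. Pou2f2, Tcf3, Ikzf3 and Foxo1 are also used in other blood cells including T cells, so this list is not restricted to B cells. Pax5, with 1 Runx3-bound region, and Ebf1, with none, had lower shares than any of these 8. Of 3 pre-B cell genes, only Vpreb3 held Runx3 (1 region), and their H3K4me1 shares were 10.9% at Igll1, 11.1% at Vpreb1 and 27.8% at Vpreb3.

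Lists of more distant cell types had lower medians of the mark. The median share was 9.4% over 7 myeloid genes (0% at Lyz2 to 31.2% at Itgam, the only 1 of them with Runx3), 2.41% over 5 erythroid genes (0.986% at Slc4a1 to 16.6% at Klf1) and 2.24% over 7 liver and neuron genes (0% at Ttr and Neurod1 to 13.6% at Neurog2). No erythroid, liver or neuron gene of these lists had Runx3 in its locus. The counting intervals for their Runx3 densities reach 14.1 and 9.52 in 1 Mb, so a density like that of the B-cell genes was not detectable as different with lists of this size. The lowest of the 7 members, Ebf1 at 18%, was above the highest erythroid and the highest liver or neuron gene, whereas Btk, Vpreb1 and Igll1 of the further B-cell lists were below Klf1. The myeloid range overlapped that of the members, with Itgam (31.2%) and Elane (27.4%) above Blk, Ms4a1, Pax5 and Ebf1, and its 107 marked regions in 1 Mb (interval 77.6 to 143) overlapped the members' 131.

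**Figure D4:**
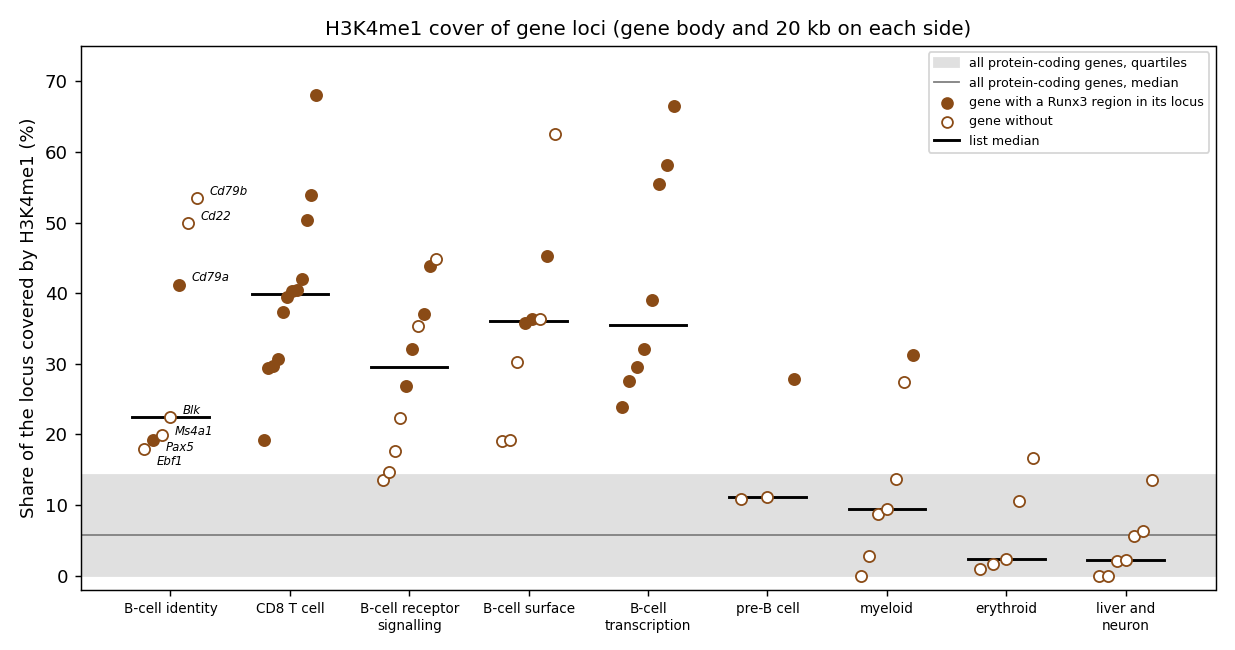
Share of each locus covered by H3K4me1 (%), 1 point for a gene, in the 7 B-cell genes (named) and 8 other lists; filled points have a Runx3-bound region in the locus, black lines are list medians, and grey marks the median (5.75%) and quartiles of 22350 protein-coding genes. All 7 B-cell genes lie above the upper quartile (14.3%), and 2 of the 7 points are filled, against 12 of 12 for the CD8 T cell list.

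Sequence letters of the RUNX motif were common at the B-cell loci whether or not Runx3 was called. All 3 Runx3-bound regions held the motif, 1 of them in the central 200 bp, against 88.8% and 66% of all Runx3-bound regions, while 27.8% of windows of that length 5 kb away held it. Of the 122 H3K4me1-marked regions, 104 (85.2%, interval 77.7 to 91%) held a RUNX motif, against 81.5% of the whole list and 88.6% at the T-cell genes. By length there were 1.85 motifs in 1 kb of the members' marked regions, 1.94 in the whole list and 1.93 at the T-cell genes. Ebf1, with no Runx3-bound region, had 702 RUNX motifs in its locus, 126 of them in marked sequence. Pax5 had 439, of which 98 were marked. Across all 7 loci, marked sequence had 1.87 RUNX motifs in 1 kb and unmarked sequence 1.72.

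The ETS letters GGAAGT, searched because ETS factors act beside RUNX factors, occurred 0.705 times in 1 kb of the members' marked regions and 0.818 times in the whole list, although the share of regions with at least 1 match was 64.8% (interval 55.6 to 73.2%) against 58.4%. The core of the EBF1 motif, CCCNNGGG, was found in 32% of the members' marked regions (interval 23.8 to 41%) and in 29% of all. It was found in 18% of all Runx3-bound regions and in 0 of the 3 at the members (interval 0 to 70.8%), a count too small to set against that share. The 3 motifs differ in their letters, although matches of different motifs may overlap in part. A match describes letters only and not a site that was bound.

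The promoters of the genes, 250 bases before the annotated 5′ end, held a RUNX motif in 3 of 7 cases, against 37.5% of all protein-coding genes. They are printed on the coding strand because they show RUNX letters next to start sites at which no Runx3 was called. The motifs began at -49 in Cd79a, at -73 in Cd79b and at -180 and -150 in Ebf1. H3K4me1 covered the whole Cd79b and Ebf1 promoters and no base of the Cd79a promoter.
Cd79a promoter, chr7:25682150-25682399, plus strand: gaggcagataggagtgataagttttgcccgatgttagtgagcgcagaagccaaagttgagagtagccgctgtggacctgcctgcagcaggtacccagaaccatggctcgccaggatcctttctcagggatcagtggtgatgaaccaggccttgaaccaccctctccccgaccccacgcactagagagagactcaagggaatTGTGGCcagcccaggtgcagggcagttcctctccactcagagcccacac
Cd79b promoter, chr11:106176077-106176326, minus strand: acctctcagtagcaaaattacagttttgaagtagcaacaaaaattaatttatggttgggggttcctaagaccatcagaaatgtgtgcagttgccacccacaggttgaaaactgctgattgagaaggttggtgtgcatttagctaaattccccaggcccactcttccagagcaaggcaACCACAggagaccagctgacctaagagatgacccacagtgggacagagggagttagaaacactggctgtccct
Ebf1 promoter, chr11:44430569-44430818, plus strand: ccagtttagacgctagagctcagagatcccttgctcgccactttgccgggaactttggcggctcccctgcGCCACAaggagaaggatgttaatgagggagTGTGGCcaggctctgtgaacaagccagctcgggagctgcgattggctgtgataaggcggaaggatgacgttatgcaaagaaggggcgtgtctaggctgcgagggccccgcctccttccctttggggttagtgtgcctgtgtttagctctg

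Of the other promoters, those of Ms4a1 (at -107) and Pax5 (at -176) held the EBF1 core letters, which 13.1% of all promoters held, and both were free of H3K4me1. The Blk promoter held the ETS letters, found in 19.8% of all, and the Cd22 promoter held none of the 3 motifs. Both were wholly covered by H3K4me1.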

How the data were processed

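ChIP-seq libraries of CD8-TC from ICR mice were processed by the authors. Reads were aligned to mm9 with ELAND, and uniquely aligned reads of joined repeats were used for peak calling with MACS 1.4 against NIS after scaling to the smaller data set. The submitters' processing notes name CASAVA 1.6 and 1.7. The deposited lists give chromosome, start, end and name, and hold neither scores nor counts, so that coordinates were the measurement used here. Starts were moved by 1 bp to browser positions, and all regions lay within the NCBIM37 chromosome lengths.

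Regions were assigned to GENCODE gene bodies with a margin of 20 kb by midpoint. Covered bases, widths, distances to start sites and motif matches were computed with Python 3.11.15, numpy 2.4.6 and scipy 1.17.1, and figures with matplotlib 3.10.9. The routines were tested on simulated data. All 67 listed genes were matched by symbol, Syk and Spi1 through RefSeq synonyms, and for Ebf1 the protein-coding record was taken over a pseudogene record of the same name. Sequences were read from NCBIM37. The members and gene lists were chosen with earlier results of these data known. The text names the 7 genes, every Runx3-bound region in their loci, and the widest and the start-site H3K4me1-marked regions. In other lists it names the genes with the highest and the lowest covered share and those with Runx3, apart from 1 item that is not reported here. Alternatives changed the margin, assignment, merging of neighbours, minimum width, start sites, overlap and motif window.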

Additional observations from a re-analysis of the deposited data

How the results depend on the processing

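Of 60 values recomputed for 9 results under alternative settings (46 planned, 14 added after seeing the data by leaving out Cd79a or Ebf1), 40 were counted as keeping to the reported value and 20 were not. The covered share was judged by its counting error and counts by a factor of 1.5, whereas the median over genes was judged by neither. With a margin of 0 or 5 kb, with regions nearest to the member's own start site, or without Cd79a, the genes with Runx3 (2), the Runx3-bound regions (3) and those overlapping H3K4me1 (2) each became 1, namely that of Pax5. The 122 H3K4me1-marked regions became 80 with a margin of 0 kb, 65 with neighbours within 1000 bp merged, 71 at or above the median width, and 78 without Ebf1. The covered share of 23.4% became 28% without Ebf1 and lay between 19.6 and 23.3% otherwise. The median of 22.4% became 17.8% with a margin of 50 kb, below the lowest member (18%). Without Ebf1 it became 31.8%, which lay inside the range of the members (18 to 53.4%) and was counted as kept. The genes with H3K4me1 within 1 kb of a start site (7) became 4 with the start site inside a region, and the Runx3-bound regions with a RUNX motif (3) became 1 in the 200 bp around the midpoint. Apart from settings that remove sequence, regions or genes by construction, the cause was not tested. H3K4me1 was present at all members included under every setting run.

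No paired analysis was possible because joined repeats gave 1 list for each antibody, so leaving out a repeat was not an option either. The NIS libraries served as control for both antibodies, and their part in either list was not tested. Without scores or reads, the strength of a region and the depth behind an unmarked locus are unknown here.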
